A study of Mus musculus with 15 samples.

Results

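The genes that make cholesterol and fatty acids were followed across total and polysomal RNA of mouse neural stem cells. The 32 genes were taken from textbook pathway membership, with earlier results of these data known, and matched to the arrays by gene symbol. Of these, 30 had at least 1 probe set, 59 probe sets in all, out of 12393 genes and 22626 probe sets tested. Acat2 and Insig1 were not measured here. Where a gene had several probe sets, it was represented by the set with the highest mean over all arrays. The measured members comprised 17 enzymes of the endoplasmic reticulum (ER) membrane, 9 cytosolic enzymes and 4 ER membrane regulators.

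The study grew primary neural stem cells as neurospheres from female mice 6 weeks old, of the strain labelled C57/B16. Cultures were left as controls or given CD95L-T4, a trimeric construct of CD95 ligand (Fas ligand, which binds a death receptor), and all 4 groups came from the 48 h time point. RNA was either total or polysomal, the latter being RNA recovered with ribosomes engaged in translation. This gave 15 Affymetrix arrays: 4 of control total RNA, 4 of CD95L-T4 total RNA, 4 of control polysomal RNA and 3 of CD95L-T4 polysomal RNA. The titles, which call the replicates biological, also supplied the groups, since the treatment field of treated cultures gives just the cell type. The mirVana kit was used for total RNA and a phenol-chloroform extraction for polysomal RNA. The labels call the molecule total RNA in the former and polyA RNA in the latter. RNA fraction, extraction and molecule label cannot be told apart. Values are the authors' normalised log2 expression values, so a difference of 1 is a doubling, and the number of arrays limits their precision.

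Cholesterol synthesis starts in the cytosol, where acetyl units are joined and turned into isoprenoid diphosphates, and continues in the ER membrane from squalene onward. Fatty acids are built in the cytosol and then elongated and desaturated by ER membrane enzymes. The sterol-regulated transcription factors encoded by Srebf1 and Srebf2 are held in the ER by Scap and the Insig proteins when sterol is plentiful, and are released to switch on both pathways when it is scarce. Messages for ER membrane proteins are in general translated by ribosomes bound to the ER, and those for cytosolic proteins largely by free ribosomes. Dividing neural cells need both lipids to build new membrane.

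Of 6 stem cell markers, 4 were well above the arrays' lower quartile of 4.5 to 4.66 in control total RNA, Pax6 was at 7.92 and Prom1 lay below it. Sox2 stood at 11.69 ± 0.04, Nes at 11.09 ± 0.13, Vim at 13.57 ± 0.03, Fabp7 at 13.84 ± 0.03 and Prom1 at 3.78 ± 0.18 (mean ± SD, n = 4). The oligodendrocyte lineage markers were mixed, with Olig1 at 13.56, Olig2 at 11.72, Cspg4 at 7.64, Mbp at 6.02, Mag at 5.29, Pdgfra at 3.76 and Mog at 3.01. Astrocyte markers ran from Aqp4 at 3.61 to S100b at 7.47, and neuronal markers from Rbfox3 at 3.41 to Map2 at 9.97. The 5 microglial markers had group means of 3.5 to 5.47 in control total RNA, the 4 endothelial markers 3.74 to 5.30 and the 4 fibroblast markers 4.38 to 5.02. Within a group, arrays correlated at 0.994 to 0.998 across probe sets. In bulk RNA, fewer cells of a type and less RNA per cell cannot be told apart.

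Promoter sequences from RefSeq (assembly GRCm38.p6) were available for 26 of the 32 genes as windows of 300 bases, mostly upstream of each start site. They are shown because the pathways are known for shared promoter elements, the sterol response element and the CCAAT box. On either strand, the sequence TCACNCCAC occurred in 1 of the 26 member genes (3.85%), against 388 of 27025 genes (1.44%). The sequence CCAAT occurred in 21 of the 26 (80.8%), against 41.1% of all genes. A gene counted if any of its windows matched. By window, CCAAT occurred in 22 of 34 member windows (64.7%), against 37.4% of all windows. Acaca, Acat2, Elovl6, Fads2 and Scap had no CCAAT match in this window. The windows below show the match in capitals, 1 each for a gene of the cytosolic steps that fell in polysomal RNA, an ER membrane enzyme that fell, a cytosolic enzyme that rose and a regulator. They lie at chr13:119690198-119690238 (plus strand), chr5:4104706-4104742 (minus strand), chr3:89454389-89454425 (plus strand) and chr15:82147118-82147154 (plus strand), all within promoter windows.
Hmgcs1: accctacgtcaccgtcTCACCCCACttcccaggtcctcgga
Cyp51: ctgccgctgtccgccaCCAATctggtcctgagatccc
Pmvk: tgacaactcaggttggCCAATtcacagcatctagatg
Srebf2: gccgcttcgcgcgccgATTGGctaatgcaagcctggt
The Srebf2 match is the reverse complement of CCAAT. A match describes the letters only. Members that fell in polysomal RNA and members that rose both carried the CCAAT letters.

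In control cultures, polysomal RNA held lower values than total RNA for most of the lipid synthesis genes, and the members that went the other way were mainly kinases and the decarboxylase of the cytosolic mevalonate steps. Of the 30 members, 25 were lower in polysomal RNA, 4 were higher and 1 did not pass (limma, adjusted p under 0.05 over all probe sets). Among all genes, 23.2% were lower and 33.5% higher by the same rule. The member median was -0.81 against 0.10 for all genes, whose 5th to 95th percentile range ran from -0.98 to 1.01. For all 25 lower members and all 4 higher members the 2 groups of arrays did not overlap, which held for 23.3% of all genes as lower and 32.2% as higher. Beta-actin 3′ minus 5′ signal was 0.28 to 0.57 in control total RNA and 0.74 to 0.81 in control polysomal RNA, and the mean of the poly-A control probe sets was 7.37 to 7.99 and 8.34 to 8.90. Among markers of other cell types, 2 of 4 astrocyte and 2 of 5 microglial markers were higher in control polysomal RNA. So were 1 of 4 endothelial and 1 of 4 fibroblast markers, against 33.5% of all genes. S100b went from 7.47 to 9.20. The microglial markers, at 3.5 to 5.47 in control total RNA, lay around the arrays' lower quartile. Of the 5 neuronal markers 1 was lower and 1 higher. Lower were 2 of 7 oligodendrocyte lineage and 3 of 6 stem cell markers, against 23.2% of all genes. The part of these in the fraction differences was not tested.

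**Figure D1:**
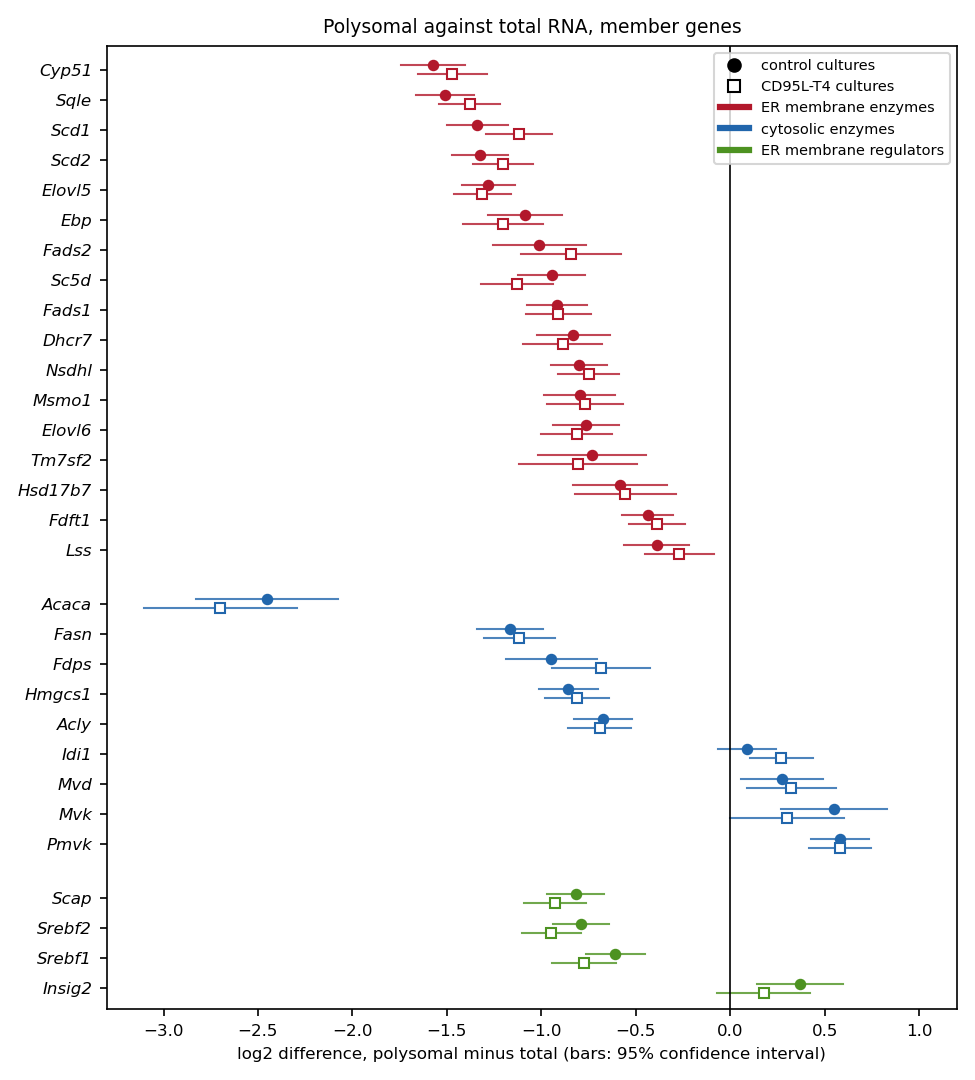
Log2 difference between polysomal and total RNA (x axis) for each of the 30 measured members (y axis), with 95% confidence intervals, in control cultures (filled circles) and CD95L-T4 cultures (open squares). All 17 ER membrane enzymes lie left of 0, while cytosolic enzymes lie on either side.

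The early cytosolic sterol enzymes split in direction. Hmgcs1, which condenses acetyl units into hydroxymethylglutaryl-CoA, was lower in polysomal RNA by a log2 difference of -0.86 ± 0.07 (SE; adjusted p = 2.35e-08 by limma, 4 arrays a group), and so was Fdps, which makes farnesyl diphosphate (-0.95 ± 0.11, adjusted p = 1.31e-06). Mvk, Pmvk and Mvd, which act in sequence on mevalonate, were higher. Idi1, the isomerase that follows them, stood at 11.59, 11.56, 11.59 and 11.52 in control total RNA and at 11.59, 11.65, 11.70 and 11.68 in control polysomal RNA. Those Idi1 groups met at their edges, and the difference of 0.09 ± 0.07 did not pass (limma adjusted p = 0.315). The 6 sterol cytosolic enzymes had a median of 0.18.

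Pmvk, phosphomevalonate kinase, was 8.69, 8.58, 8.58 and 8.57 in control total RNA and 9.02, 9.29, 9.20 and 9.23 in control polysomal RNA. In CD95L-T4 cultures Pmvk was 8.71, 8.71, 8.66 and 8.67 in total RNA and 9.39, 9.21 and 9.20 in polysomal RNA. Every polysomal array was above every total RNA array, and the difference was 0.58 ± 0.07 in controls (adjusted p = 1.96e-06) and 0.58 ± 0.08 in treated cultures (adjusted p = 5.95e-06, limma).

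Mvk, mevalonate kinase, was 8.38, 8.25, 8.29 and 8.19 in control total RNA and 8.95, 8.95, 8.77 and 8.64 in control polysomal RNA. In CD95L-T4 cultures Mvk was 8.48, 8.30, 8.36 and 8.27 in total RNA and 8.70, 9.06 and 8.20 in polysomal RNA. The control groups were apart, with a difference of 0.55 ± 0.13 (limma adjusted p = 0.00174). The treated groups overlapped because replicate 3 of the polysomal arrays was below all 4 total RNA arrays of its culture type, and the difference of 0.30 ± 0.14 did not pass (adjusted p = 0.0903). Without that array it was 0.53 (adjusted p = 0.00101). It also passed with equal array medians (0.39, adjusted p = 0.0279) and with both probe sets averaged (0.41, adjusted p = 0.00671). The other probe set of Mvk was higher by 0.77 ± 0.10 in controls and by 0.52 ± 0.10 in treated cultures, with no overlap (adjusted p = 2.42e-06 and 0.000457).

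Mvd, the mevalonate diphosphate decarboxylase, was 8.24, 8.30, 8.08 and 8 in control total RNA and 8.37, 8.37, 8.51 and 8.46 in control polysomal RNA. The gap between these groups was narrow, and the difference was 0.27 ± 0.10 (limma adjusted p = 0.0315). It no longer passed when control total replicate 3 or 4, or control polysomal replicate 3 or 4, was left out (0.22 to 0.26, adjusted p from 0.065 to 0.103). In CD95L-T4 cultures Mvd was 8.36, 8.35, 8.23 and 8.10 in total RNA and 8.88, 8.39 and 8.48 in polysomal RNA. That difference was 0.32 ± 0.11 (adjusted p = 0.0208), and it did not pass without CD95L-T4 total replicate 4 (0.27, adjusted p = 0.064) or CD95L-T4 polysomal replicate 1 (0.18, adjusted p = 0.166).

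By their brightest probe sets, the 11 ER membrane enzymes of the sterol branch that were members all passed as lower in polysomal RNA, with a median of -0.80 and a range of -1.57 to -0.39. Cyp51, the lanosterol demethylase, had the largest fall among them. Its values were 10.78, 10.82, 10.79 and 10.92 in control total RNA and 9.26, 9.43, 9.15 and 9.18 in control polysomal RNA. In CD95L-T4 cultures Cyp51 was 10.81, 10.82, 10.91 and 10.87 in total RNA and 9.49, 9.45 and 9.20 in polysomal RNA. No polysomal array came near a total RNA array. The difference was -1.57 ± 0.08 in controls, 2.97-fold (limma adjusted p = 1.1e-10), and -1.47 ± 0.09 in treated cultures (adjusted p = 9.51e-10).

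Sqle, squalene epoxidase, which introduces oxygen before ring closure, came next. It was 11.78, 11.82, 11.91 and 12.01 in control total RNA and 10.36, 10.41, 10.33 and 10.38 in control polysomal RNA. In CD95L-T4 cultures Sqle was 11.88, 11.82, 11.97 and 11.93 in total RNA and 10.58, 10.39 and 10.59 in polysomal RNA. Again the fractions were well apart, by -1.51 ± 0.07 in controls (limma adjusted p = 5.53e-11) and -1.38 ± 0.08 in treated cultures (adjusted p = 6.41e-10).

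The remaining sterol enzymes fell less. Ebp, the sterol isomerase, differed by -1.09 ± 0.09 in control cultures and Sc5d, a sterol desaturase, by -0.95 ± 0.08. Dhcr7, the reductase of the last step of its branch, differed by -0.83, and Nsdhl and Msmo1, which remove methyl groups with Hsd17b7, by -0.80 each, with Hsd17b7 at -0.58 ± 0.12. Tm7sf2, a sterol reductase, differed by -0.73 ± 0.14. The smallest falls were those of Fdft1, squalene synthase, and Lss, which closes the sterol rings, at -0.44 ± 0.06 and -0.39 ± 0.08 (limma adjusted p = 1.33e-05 and 0.00047), and their dimmer probe sets differed in direction, as described with the other probe sets.

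Fatty acid synthesis genes were lower in polysomal RNA for cytosolic and ER membrane enzymes alike, and all 9 passed the test. Acaca, acetyl-CoA carboxylase, which commits acetyl units to fatty acids, was 6.28, 6.56, 7 and 7.05 in control total RNA and 4.08, 4.15, 4.54 and 4.31 in control polysomal RNA. In CD95L-T4 cultures Acaca was 6.97, 6.36, 7.01 and 6.59 in total RNA and 3.77, 4.28 and 4.05 in polysomal RNA. The fractions were far apart, by -2.45 ± 0.18 in controls (limma adjusted p = 2.83e-09) and -2.70 ± 0.19 in treated cultures (adjusted p = 5.22e-09). The control difference lay at percentile 0.0323 of all genes, but the polysomal values lay below the lower quartile of their arrays (4.58 to 4.66), so the size of this fall rests on dim signals.

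Acly, which supplies cytosolic acetyl-CoA from citrate, fell by 0.68 ± 0.07 on the log2 scale, and Fasn, fatty acid synthase, by 1.17 ± 0.08. Among the ER membrane enzymes, Scd1, a stearoyl-CoA desaturase, was 11.23, 11.24, 11.37 and 11.17 in control total RNA and 10.04, 9.98, 9.85 and 9.78 in control polysomal RNA. In CD95L-T4 cultures Scd1 was 11.30, 11.34, 11.16 and 11.20 in total RNA and 10.11, 10.07 and 10.21 in polysomal RNA. The fractions did not overlap in either culture, with differences of -1.34 ± 0.08 and -1.12 ± 0.08 (limma adjusted p = 2.6e-10 and 7.27e-09). Its paralogue Scd2 differed by -1.33 ± 0.07 in control cultures, and since these genes are close copies, probes of one may read the other.

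The elongases Elovl5 and Elovl6 differed by -1.28 ± 0.07 and -0.76 ± 0.08 in control cultures. The front-end desaturases Fads1 and Fads2, which make polyunsaturated fatty acids, differed by -0.92 ± 0.08 and -1.01 ± 0.12. The 6 fatty acid enzymes of the ER membrane had a median of -1.14, and the 3 in the cytosol a median of -1.16.

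**Figure D2:**
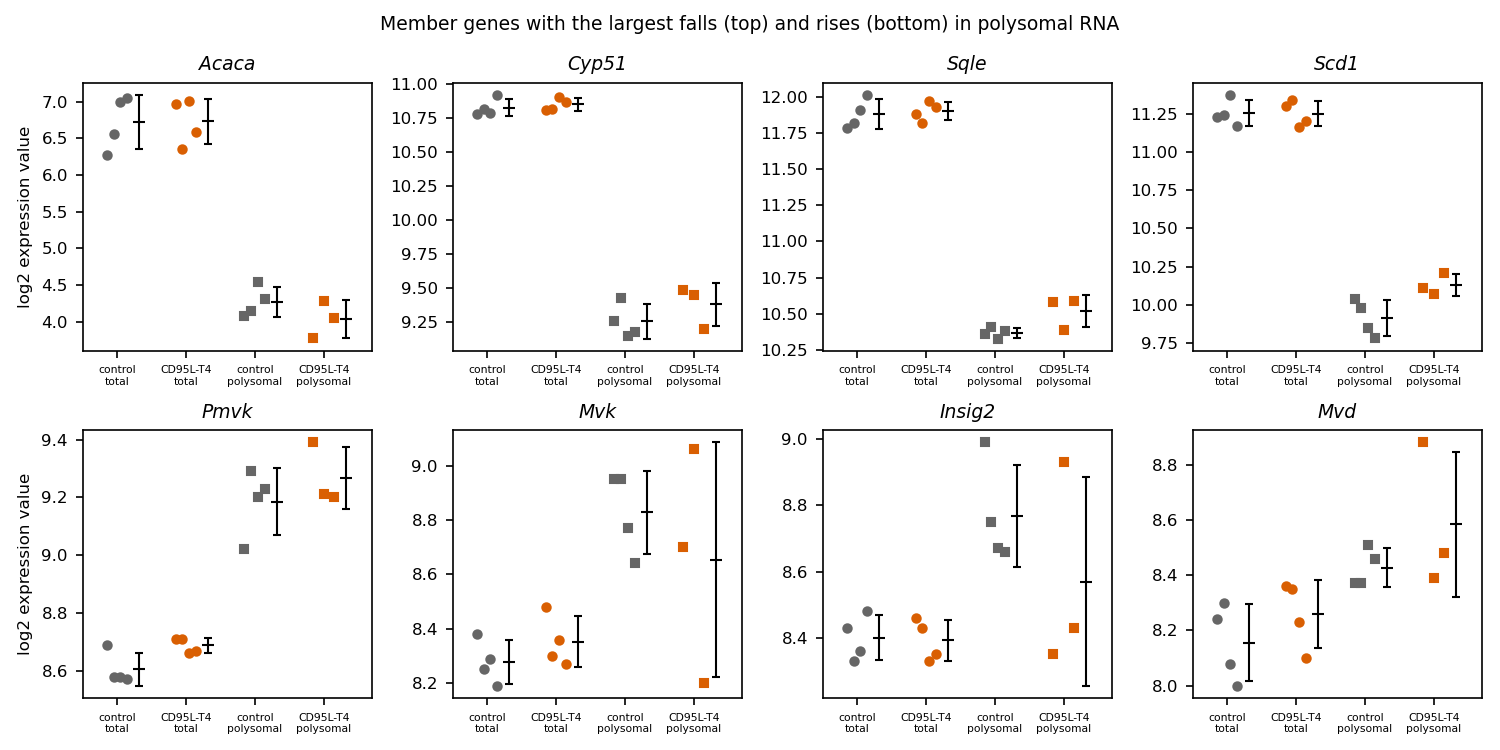
Log2 expression value (y axis) in each array of the 4 groups for the members with the 4 largest falls (top row) and the 4 largest rises (bottom row) in polysomal RNA of control cultures; bars are the mean and SD. Acaca, Cyp51, Sqle and Scd1 are separated by fraction with no overlap, and for Mvk and Insig2 the CD95L-T4 polysomal arrays reach into the range of total RNA.

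Of the regulators, the 3 that carry or are the transcription factor were lower in polysomal RNA and Insig2 was higher. Srebf1 was 10.66, 10.71, 10.61 and 10.77 in control total RNA and 10.13, 10, 10.10 and 10.09 in control polysomal RNA. In CD95L-T4 cultures Srebf1 was 10.87, 10.64, 10.80 and 10.84 in total RNA and 9.88, 10.14 and 10.02 in polysomal RNA. The fractions did not overlap, with differences of -0.61 ± 0.07 and -0.77 ± 0.08 (limma adjusted p = 1.77e-06 and 3.22e-07).

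Srebf2, the factor that acts mainly on sterol genes, was 9.56, 9.37, 9.45 and 9.59 in control total RNA and 8.67, 8.67, 8.72 and 8.75 in control polysomal RNA. In CD95L-T4 cultures it was 9.53, 9.61, 9.72 and 9.70 in total RNA and 8.71, 8.64 and 8.73 in polysomal RNA. Both polysomal groups were below all total RNA arrays, by -0.79 ± 0.07 and -0.95 ± 0.07 (limma adjusted p = 2.84e-08 and 1.58e-08). The dimmer probe set of Srebf2 overlapped in both cultures and did not pass. It differed by -0.25 ± 0.255 in controls and -0.37 ± 0.275 in treated cultures (adjusted p = 0.429 and 0.285).

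Scap, the sterol-sensing escort, was 9.73, 9.67, 9.68 and 9.74 in control total RNA and 8.98, 8.92, 8.86 and 8.79 in control polysomal RNA. In CD95L-T4 cultures it was 9.89, 9.90, 9.74 and 9.72 in total RNA and 8.80, 9 and 8.85 in polysomal RNA. The fractions were apart in both cultures, by -0.82 ± 0.07 and -0.93 ± 0.08 (limma adjusted p = 2.67e-08 and 2.59e-08).

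Insig2, which retains Scap in the ER, was 8.43, 8.33, 8.36 and 8.48 in control total RNA and 8.99, 8.75, 8.67 and 8.66 in control polysomal RNA, a rise of 0.37 ± 0.11 (limma adjusted p = 0.00778). In CD95L-T4 cultures it was 8.46, 8.43, 8.33 and 8.35 in total RNA and 8.35, 8.93 and 8.43 in polysomal RNA. There the groups overlapped and the difference of 0.18 ± 0.12 did not pass (adjusted p = 0.225), becoming -0.002 when replicate 2 of the polysomal arrays, the only high one, was left out. The other probe sets of Insig2 disagreed in treated cultures: 1 was higher by 0.61 ± 0.13 with no overlap (adjusted p = 0.000777) and 1 stood at -0.06 ± 0.13 (adjusted p = 0.737). In controls the former was higher by 0.48 ± 0.12 with no overlap (adjusted p = 0.00276). The latter overlapped there and did not pass (0.23 ± 0.12, adjusted p = 0.108).

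By location, the ER membrane enzymes and the cytosolic enzymes differed mainly in how uniform they were. By their brightest probe sets, all 17 ER membrane enzymes were lower, with a median of -0.92 in control cultures. With a gene's probe sets averaged, Fdft1 did not pass in control or CD95L-T4 cultures (-0.05 and -0.07, limma adjusted p = 0.464 and 0.343). Of the 9 cytosolic enzymes 5 were lower, 3 were higher and 1 did not pass, with a median of -0.68. That median depended on the processing: it was -0.29 without the dimmest 50% of probe sets, -0.42 with a gene's probe sets averaged, and -1.01 for the 4 enzymes left without Idi1, Fdps, Mvk, Pmvk and Mvd, which have also been placed in peroxisomes. The last of these is below the ER membrane median, so the order of the class medians rested on those mevalonate enzymes. Relative to the mean of control total RNA, the averaged ER membrane enzymes stood at -0.88, -0.90, -1.003 and -1.07 in the control polysomal arrays. The averaged cytosolic enzymes stood at -0.54, -0.52, -0.46 and -0.52 in the same arrays. Every polysomal array had the larger shift in the ER membrane class, and the gap between the classes was -0.449 ± 0.111 (SD, n = 4). In control total RNA the same quantity varied with an SD of 0.024. Both SDs are between arrays and do not measure the spread between genes of a class. That spread was -2.45 to 0.58 for cytosolic and -1.57 to -0.39 for ER membrane enzymes. The cytosolic average includes Acaca, at -2.45, and Pmvk, Mvk, Mvd and Idi1 with positive differences. No p is given for this comparison because the genes were chosen with earlier results known.

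The fatty acid branch did not show the separation by location, with medians of -1.14 in the ER membrane and -1.16 in the cytosol. For comparison, a list of 25 ER translocation, glycosylation and folding genes had a median of -1.26, with 21 lower and 2 higher, the latter being Sec61b, a subunit of the translocation channel (1.09), and Spcs1, of the signal peptidase (0.37). A list of 13 glycolytic enzymes, which are cytosolic, had a median of -0.64, with 10 lower and none higher. Among all genes 23.2% were lower and 33.5% higher.

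**Figure D3:**
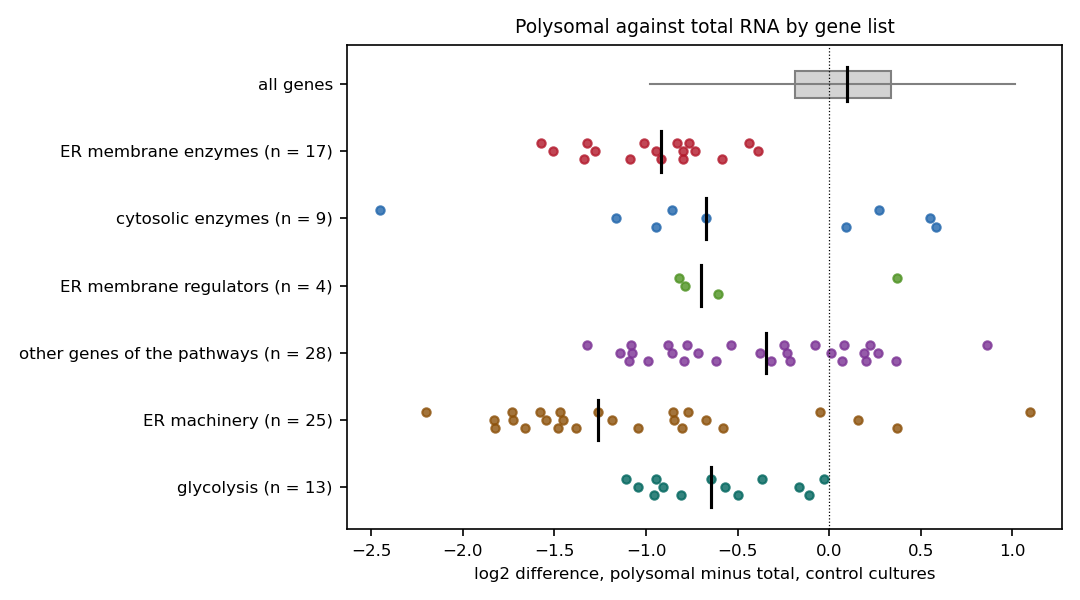
Log2 difference between polysomal and total RNA in control cultures (x axis) for each gene list (y axis); points are genes, vertical ticks are medians, and for all genes the box is the interquartile range and the line the 5th to 95th percentiles. The ER machinery genes have the lowest median of the lists shown (-1.26), and all 13 glycolytic enzymes lie below 0.

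Of 37 further genes of the pathways, 28 were measured, and their median difference was -0.35. Of these, 17 were lower and 4 higher in control polysomal RNA, against 23.2% and 33.5% of all genes. Those with the largest falls were Npc1, which exports cholesterol from lysosomes (-1.32, limma adjusted p = 5.47e-10), and the fatty acid elongation cycle enzymes Tecr (-1.14) and Hsd17b12 (-1.09). Those with the largest rises were Ggps1, which makes geranylgeranyl diphosphate (0.86, adjusted p = 1.94e-07), Fnta, the shared subunit of protein prenyltransferases (0.36), and Apoe, a carrier of lipid in the brain (0.27). In the elongation, activation and supply group 10 of 14 were lower and none was higher. In the isoprenoid branch 1 of 4 was lower and 2 were higher, too few genes to tell from the shares of all genes.

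The fractions were compared in CD95L-T4 cultures in the same way. Of the 30 members, 25 were lower in polysomal RNA and 3 higher, against 21.8% and 29.6% of all genes, and the same 25 genes were lower in both culture types. Higher in both were Pmvk and Mvd. Idi1 also passed as higher in treated cultures, at 11.64, 11.67, 11.54 and 11.62 in total RNA and 12.02, 11.69 and 11.95 in polysomal RNA (0.27 ± 0.08, limma adjusted p = 0.00818), and did not pass without polysomal replicate 1 (0.20, adjusted p = 0.0503). Its other probe set was higher by 0.73 ± 0.17 there (adjusted p = 0.00124). Whether the fraction difference itself differed with treatment is given by the interaction below. Class medians were -0.89 for the ER membrane enzymes and -0.69 for the cytosolic enzymes. The cytosolic median here was -0.21 without the dimmest 50% of probe sets, -0.30 with probe sets averaged and -0.96, the lower of the class medians, without the enzymes also placed in peroxisomes. In the 3 treated polysomal arrays the averaged ER membrane enzymes stood at -0.88, -0.85 and -0.95 and the averaged cytosolic enzymes at -0.35, -0.47 and -0.48. Of the 28 further pathway genes 15 were lower, led by Tecr (-1.13), Hacd3 of the same elongation cycle (-1.06) and the cholesterol exporter Abca1 (-1.04), and 2 were higher, Ggps1 (0.86) and Fnta (0.34).

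Other probe sets of the same genes mostly pointed the same way. Of the 59 member probe sets, 43 were lower, 9 higher and 7 not called in control polysomal RNA, against 26.3% lower and 29.8% higher of all probe sets. Of the 18 genes with several sets, 15 had the same sign in all of them. Scd2 differed by -1.33, -2.17 and -3.08 in its 3 sets, from the brightest to the dimmest. Acly differed by -0.68, -0.98 and -1.65 in its 3 bright sets and by -0.31 and -0.04 in a pair of dim ones. Exceptions in direction were Fdft1, with -0.44 in both bright sets and 0.38 and 0.31 in both dim ones, Lss, with -0.39, -0.55 and 0.24, and Fdps, whose dim set gave 0.11. The positive sets of Lss and Fdps did not pass (limma adjusted p = 0.066 and 0.259). That of Fdps, at a mean of 2.85, lay below the arrays' lower quartile. Averaged over its sets, Fdft1 did not pass in control cultures (-0.05, limma adjusted p = 0.464). The size of a fold therefore depended on the probe set for these genes.

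**Figure D4:**
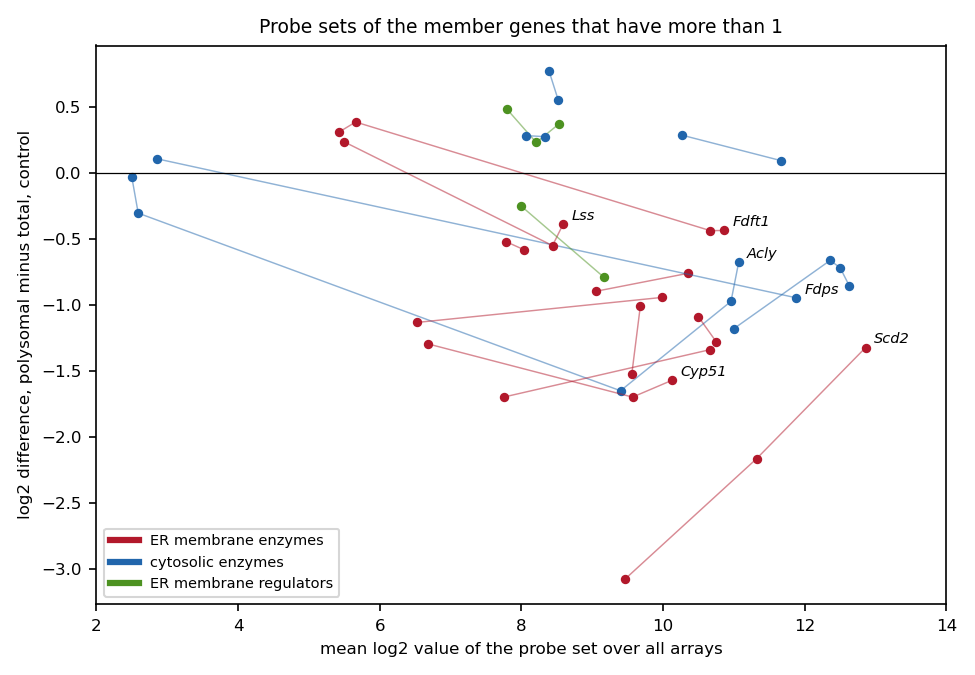
Log2 difference between polysomal and total RNA in control cultures (y axis) against the mean log2 value of the probe set over all arrays (x axis) for the 18 member genes with more than 1 probe set; lines join the sets of a gene. The 3 sets of Scd2 run from -1.33 to -3.08, and the dim sets of Fdft1 lie above 0.

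The next question was whether CD95L-T4 changed the lipid synthesis genes. In total RNA, 0 of the 30 members passed (limma), as did 0% of all genes. At an unadjusted p under 0.05 there were 2 members, against 3.44% of all genes. The member median was 0.06 and that of all genes 0.02. By the brightest probe sets, every one of the 30 intervals (95%) lay within 1.5-fold in either direction. Larger changes lie outside those intervals, and smaller ones are not addressed. Intervals of a dimmer set of Idi1 (-0.62 to 0.03) and of Srebf2 (-0.28 to 0.80) reached past 1.5-fold. Dimmer sets of Insig2 (-0.30 ± 0.12, no overlap) and Mvd (0.21 ± 0.08, overlapping) did not pass (limma adjusted p = 0.997 each).

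Nsdhl was 10.68, 10.70, 10.71 and 10.53 in control total RNA and 10.82, 10.77, 10.77 and 10.88 in CD95L-T4 total RNA. All 4 treated arrays were above all 4 controls, as for 1.78% of genes, yet the difference of 0.16 ± 0.07 did not pass (limma adjusted p = 0.997). Srebf2, whose values are given above, differed by 0.15 ± 0.07 with overlapping groups (adjusted p = 0.997). Hsd17b7 was 7.98, 8.46, 8.22 and 8.21 in controls and 8.63, 8.15, 8.57 and 8.30 after CD95L-T4. These groups overlapped, at 0.20 ± 0.12 (adjusted p = 0.997).

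In polysomal RNA, 0 of 30 members and 0% of all genes passed. At an unadjusted p under 0.05 there were 4 members (13.3%), Fdps, Idi1, Nsdhl and Scd1, against 9.49% of all genes. Of the 30 intervals of the brightest probe sets, 28 lay within 1.5-fold. Those that did not were Acaca, from -0.64 to 0.17, and Fdps, from 0.13 to 0.65. By the brightest probe sets, the groups did not overlap for 4 members, all higher after CD95L-T4, namely Fdps, Fdft1, Nsdhl and Scd1, against 2.53% of genes higher. The other bright set of Fdft1 overlapped (0.03 ± 0.07), and a dim set was lower without overlap (-0.19 ± 0.07). Dimmer sets of Mvd (0.23 ± 0.09), Lss (0.22 ± 0.09) and Hmgcs1 (0.085 ± 0.07) were higher without overlap. They did not pass (limma adjusted p = 0.487, 0.494 and 0.709), nor did a dimmer, overlapping set of Insig2 (-0.305 ± 0.126, adjusted p = 0.494). Intervals of dimmer sets of Scd2 (-0.64 to 0.33) and Srebf2 (-0.44 to 0.72) reached past 1.5-fold.

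Fdps was 11.27, 11.28, 11.28 and 11.23 in control polysomal RNA and 12.06, 11.45 and 11.46 in CD95L-T4 polysomal RNA. Replicate 1 stood far above the others, and the difference of 0.39 ± 0.12 did not pass (limma adjusted p = 0.473). Without replicate 1 it was 0.19. Idi1, whose values are given above, differed by 0.23 ± 0.08 with overlapping groups (adjusted p = 0.474). Nsdhl was 9.85, 9.86, 9.98 and 9.73 in controls and 10.09, 10 and 10.09 after CD95L-T4, higher in all 3 arrays by 0.21 ± 0.08 without passing (adjusted p = 0.483).

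Replicate 2 of the CD95L-T4 polysomal arrays changed the outcome of this comparison. Its poly-A control mean was 9.71, against 8.05 and 8.19 in the other treated polysomal arrays and 8.34 to 8.90 in the controls, and the part of this in the result was not tested. Without it, limma called 1386 of all 22626 probe sets in place of 0, among them those of 3 of the 30 members. Idi1 was then higher by 0.33 ± 0.07 (adjusted p = 0.015), Fdps higher by 0.50 ± 0.13 (adjusted p = 0.0389) and Insig2 at -0.38 ± 0.09, lower (adjusted p = 0.0286). Those values rest on 2 treated arrays.

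**Figure D5:**
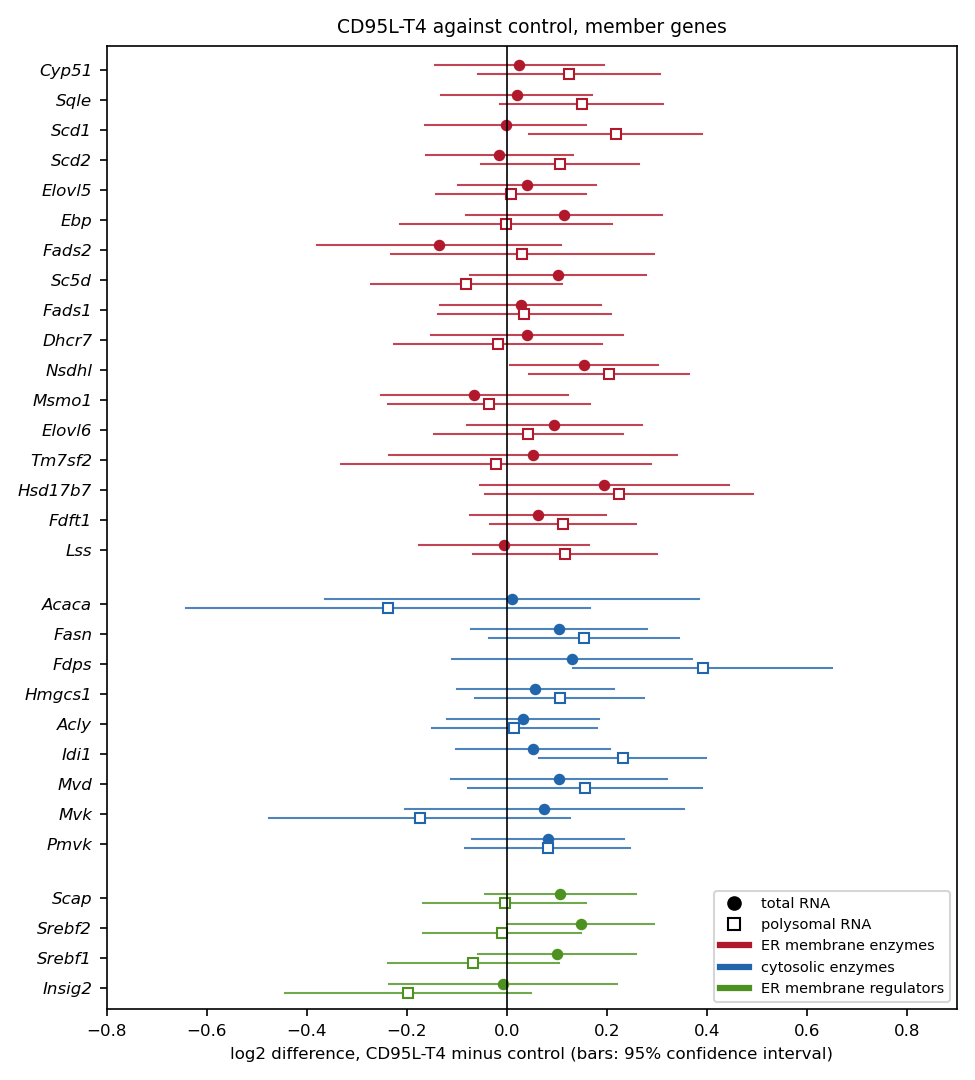
Log2 difference between CD95L-T4 and control (x axis) for each measured member (y axis), with 95% confidence intervals, in total RNA (filled circles) and polysomal RNA (open squares). Points lie close to 0 in all 3 classes, and the interval of Fdps in polysomal RNA runs from 0.13 to 0.65.

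The CD95L-T4 effect was also compared between the fractions. No member passed, at the adjusted or the unadjusted threshold of 0.05, and 0% of genes passed after adjustment against 3.99% without it. Of the 30 intervals of the brightest probe sets, 27 lay within 1.5-fold. The 3 members with the smallest p were Scd1 (0.22 ± 0.11), Idi1 (0.18 ± 0.11) and Fdps (0.26 ± 0.17), each with a limma adjusted p of 0.897. By class, the median effect of CD95L-T4 in polysomal RNA was 0.04 for ER membrane enzymes, 0.11 for cytosolic enzymes and -0.04 for the regulators, and in total RNA 0.04, 0.08 and 0.10. In the CD95L-T4 arrays the gap between the shifts of ER membrane and cytosolic enzymes was -0.53, -0.38 and -0.47 in polysomal RNA, within the control range of -0.55 to -0.33.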

How the data were processed

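Per the labels, biotin-labelled RNA was hybridised to Affymetrix mouse arrays. The deposited table holds log2 expression values, normalised by the authors and rounded to 2 decimals; the method is not given in the sources used here. No processing batch was given. Of 22690 probe sets, the 64 control sets were left out of the tests. Genes were named from GEO's platform annotation, and no member lay in a probe set of several genes. Differences were fitted with limma 3.58.1 (R 4.3.3), fitting the 4 group means together on 15 arrays, two-sided, with Benjamini-Hochberg adjustment over 22626 probe sets at 0.05; this test was checked on simulated data. Every measured member was named. Values in every array were given for the 4 largest falls and rises between fractions in controls, the 3 smallest p in each treatment contrast, and the regulators; other pathway genes were limited to the 3 largest in each direction. Members and lists were chosen with earlier results of these data known. Alternatives covered scaling, dim probe sets, probe sets of a gene, variance models, blocks, location classes and left-out arrays. Promoters came from RefSeq. A planned comparison with protein hydrophobicity was not run, as no protein sequences were used here.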

Additional observations from a re-analysis of the deposited data

Results flagged for a closer look

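In 4 of 90 groups of 4 arrays, 1 array of a member gene stood apart from the other 3 by Dixon's criterion (critical value 0.829), and chance alone gives about 1 in 20. Pmvk was 8.69 in control total replicate 1 against 8.57 to 8.58 in the others. Nsdhl was 10.53 in control total replicate 4 against 10.68 to 10.71. Scd2 was 13.49 in CD95L-T4 total replicate 4 against 13.43 to 13.44. Fads2 was 9.89 in control total replicate 1 against 10.27 to 10.29. These gaps were smaller than the differences between fractions of the same genes.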

How the results depend on the processing

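Scaling, filter, variance model and array weights left the count of members lower in polysomal RNA at 24 or 25. With equal array medians, the ER membrane median was -0.825 in control and -0.797 in CD95L-T4 cultures, while the median of all probe sets rose from 0.06 to 0.152 and from 0.0408 to 0.131. Without the dimmest 50% of probe sets, which leaves out Acaca, the cytosolic median was -0.292 and -0.208. Averaging a gene's probe sets gave -0.421 and -0.304. It called 8108 and 7374 of 14639 entries, which are more than the 12393 genes. Without averaging, 12704 and 11603 of 22626 probe sets were called. Without the enzymes also placed in peroxisomes the cytosolic median was -1.01 and -0.962. With the regulators counted among them, the ER membrane median was -0.818 in controls. Requiring a log2 difference of at least 0.5 left 23 members lower in each culture type, without Fdft1 and Lss, 2 higher in controls and 1 in CD95L-T4 cultures, and 7242 and 6997 probe sets; fitting only the groups compared left 1 member higher in CD95L-T4 cultures. Idi1 in controls turned to -0.007 with quantile normalisation over all arrays and passed as higher with equal medians (0.182, limma adjusted p = 0.0331). In CD95L-T4 cultures Idi1 lost its call with that quantile normalisation (0.155, adjusted p = 0.0893), and Insig2 turned to -0.002 without CD95L-T4 polysomal replicate 2 (-0.002 to 0.287 over the left-out arrays). The causes were not tested. Lss in CD95L-T4 cultures lost its call with equal medians (adjusted p = 0.0886), with array weights (0.0597) and without CD95L-T4 total replicate 1 (0.0543), all by limma.

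Leaving out each array in turn gave, in polysomal RNA, 0 to 2 of 30 members higher and 0 to 1 lower after CD95L-T4. The probe sets called there numbered 0 to 1386 of 22626. The interaction gave 0 to 2 probe sets. Members higher in polysomal RNA of CD95L-T4 cultures numbered 1 to 4, and the cytosolic median there was -0.697 to -0.582. Whether replicate numbers pair the arrays could not be settled from correlations of their deviations from group means. Of 21 same-numbered pairs, 7 correlated above 0.1 (-0.234 to 0.219), and differently numbered pairs ran from -0.305 to 0.35. With the replicate block, 25 members stayed lower and 4 higher in controls (12731 probe sets called), 25 lower and 3 higher in CD95L-T4 cultures (11597), and 0 changed with treatment.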
